A study of Sus scrofa with 2 samples.

Results

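Helper cytokine transcripts were described in thymocytes of the pig that had received no treatment and no stimulation stated in the labels. The genes were 10 effector cytokines chosen by symbol, namely IL4, IL13, IL5, IFNG, IL2, CSF2, IL17A, IL26, IL21 and IL10, and all 10 were listed among the 21301 genes of the count matrices. The libraries were iNKT thymocytes, purified by positive selection on magnetic beads, and total thymocytes from the same thymi. Both were sorted live, and each pooled cells of the same 2 mixed-breed pigs aged 22 weeks. With 1 library per group there was no test, and fewer cells of a type cannot be told apart from less RNA per cell in a library's sum. Intervals below are exact 95% intervals, Poisson for levels and Clopper-Pearson for shares. They cover counting error in these libraries only and not differences between pigs. Intervals of levels and of ratios take each count as independent. They are too narrow for genes whose counts clump in few cells, such as IL4 and IL26 below.

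Invariant natural killer T (iNKT) cells carry a near-uniform T cell receptor that recognises glycolipids on CD1d, and they are selected in the thymus on double-positive thymocytes. In mice they divide into thymic subsets named for their cytokines, one with IFN-γ and T-bet (TBX21), one with IL-4 and GATA3, and one with IL-17, all under the regulator PLZF (ZBTB16). Mouse iNKT cells hold IL-4 and IFN-γ transcripts before any stimulus. Among conventional helper T cells, IL-4, IL-5 and IL-13 drive antibody class switching, eosinophils and mucus, IFN-γ activates macrophages, and IL-17A recruits neutrophils.

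After filtering, 11273 iNKT cells with a median of 4210 unique molecular identifiers (UMIs, each standing for 1 captured transcript) and 8026 total thymocytes with a median of 2414.5 UMIs were kept. Summed iNKT markers (ZBTB16, CD9 and HPGDS) stood at 500 CPM (a gene's UMIs per 1000000 UMIs of the cells) in iNKT cells, against 7.21 CPM in total thymocytes, and 8 double-positive markers at 3.06 CPM in iNKT cells, against 2419 CPM in total thymocytes. The 6 listed genes of the mast cell, basophil and eosinophil markers, cells known as other sources of IL4, summed to 0.188 CPM in iNKT cells, against 14.4 CPM in total thymocytes, with MS4A2, HDC and GATA2 at 0 in iNKT cells. In total thymocytes that sum rested largely on 1 gene, KIT, which had 11.7 CPM in the cells without an IL26 UMI. The libraries shared 41 cell barcodes. Because only the iNKT library had passed the beads, that handling and the cell type cannot be told apart in any difference between libraries.

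Of the 10 cytokines, IL4 was the one held at depth by iNKT thymocytes. It had 1350 UMIs in iNKT cells, against 1 UMI in total thymocytes, which was 25.3 CPM (24.0 to 26.7) in iNKT cells and 0.0350 CPM (0.000886 to 0.195) in total thymocytes. IL5 followed with 219 UMIs in iNKT cells and 68 UMIs in total thymocytes. The other 8 genes had 0 to 12 UMIs in the whole iNKT library. Among these, IL26 had 12 UMIs, IL21 had 10, CSF2 had 4, IL10 had 2 and IL2 had 1, while IL13, IFNG and IL17A had none. Since the reads count 3′ ends, a level in CPM was not divided by transcript length. On that scale IL4 and IL5 stood apart from each other and from the rest in iNKT cells, and the intervals of IL26 at 0.225 CPM (0.116 to 0.393), IL21 at 0.188 CPM (0.0900 to 0.345) and CSF2 at 0.0751 CPM (0.0205 to 0.192) overlapped.

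**Figure D1:**
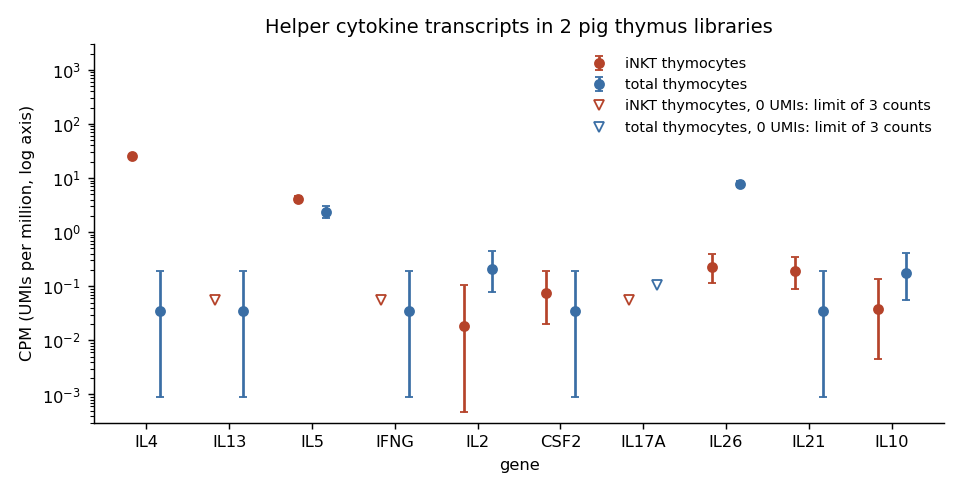
Level of each cytokine transcript in iNKT thymocytes (red) and total thymocytes (blue), in CPM on a log axis; bars are exact Poisson 95% intervals and open triangles mark genes with 0 UMIs, drawn at the level that 3 counts would give. IL4 sits at 25.3 CPM in iNKT cells against 0.0350 CPM in total thymocytes, and IL26 at 0.225 CPM against 7.84 CPM.

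Between the libraries, the members ran in different directions. Of the 3 cytokine genes with at least 20 UMIs over both libraries, IL4 was at least 2-fold higher in iNKT cells, as were 12.4% of the 10740 genes at that minimum, and IL26 was at least 2-fold lower, as were 19.3% of them. The IL4 ratio of 724 (130 to 28612.5) rested on a single UMI in total thymocytes, so its size is poorly fixed. IL5 was 1.73-fold higher in iNKT cells (1.31 to 2.30). With TMM factors, which moved every log2 ratio up by 0.31 and turned the split of 2-fold calls to 52.2% higher and 47.8% lower, against 39.1% higher and 60.9% lower by CPM, the IL5 ratio became 2.14 and passed 2-fold, as 16.2% of genes then did, while IL26 stayed among the 14.9% that were 2-fold lower. At equal depth the shares differed in the same direction. Cells were thinned to 2000 UMIs, which left out 308 iNKT cells and 3252 total thymocytes as too shallow, among these most of total cluster 0, of whose 2672 cells 458 remained. In the thinned cells the share with an IL5 UMI was 0.839% among 10965 iNKT cells (0.677 to 1.03), against 0.419% among 4774 total thymocytes (0.256 to 0.646), and the intervals did not overlap.

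Several of the rarer cytokines gave no usable ratio. IL13, which acts beside IL-4 through IL-4Rα, had 0 UMIs in iNKT cells and 1 in total thymocytes. IFNG likewise had 0 UMIs in iNKT cells and 1 in total thymocytes, and IL17A had none in either library. Taken as 3 counts, the limit on cells with a UMI that a count of 0 allows was 0.0266% of the iNKT cells for these 3 genes, and 0.0374% of the total thymocytes for IL17A. It bounds detection and not expression. A count of 0 also depends on how the 3′ end of the gene was annotated. IL10, a cytokine that restrains inflammation, had 2 UMIs in iNKT cells and 5 in total thymocytes, a ratio of 0.214 whose interval (0.0204 to 1.31) included 1. CSF2, a growth factor for myeloid cells, had 4 UMIs in iNKT cells and 1 in total thymocytes, and its ratio of 2.14 (0.212 to 106) included 1 as well. IL21, which helps B cells in germinal centres, had 10 UMIs in iNKT cells and 1 in total thymocytes, a ratio of 5.36 (0.763 to 233). IL2, the T cell growth factor, had 1 UMI in iNKT cells and 6 in total thymocytes, a ratio of 0.0894 (0.00194 to 0.737).

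IL4 was spread over many iNKT cells, mostly 1 transcript at a time. The transcript was found in 1032 of the 11273 iNKT cells, a share of 9.15% (8.63 to 9.70). Among the 8026 total thymocytes 1 cell held it, a share of 0.0125% (0.000315 to 0.0694). At 2000 UMIs per cell the share was 4.24% of iNKT cells (3.87 to 4.63), against 1 of 4774 total thymocytes, 0.0209% (0.000530 to 0.117). Detection followed depth: over 4 groups of iNKT cells, ordered by rising depth, the share with IL4 ran 5.62%, 7.10%, 8.86% and 15.04%, while the level was 26.8, 23.1, 24.1 and 26.7 CPM. The share with a UMI thus moved with depth, and the level in CPM showed no such order.

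A minority of cells held several IL4 transcripts. Of the 1032 IL4-positive iNKT cells, 838 had 1 UMI and 194 had 2 or more, 18.8% of them, and those 194 cells held 37.9% of all IL4 UMIs. The most in 1 cell was 14. The variance of IL4 over cells was 1.80 times its mean, above that of 98.7% of the 3557 genes with 0.5 to 2 times as many UMIs, whose median was 1.06. IL5 was different in this respect. Of its 216 positive iNKT cells only 2 had more than 1 UMI, and its variance was 1.02 times its mean, above that of 22.4% of 1816 genes of like abundance. In total thymocytes IL26 was the clumped one, with 45 of its 111 positive cells at 2 or more UMIs and a variance 3.46 times its mean, above that of 98.4% of 2442 genes.

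**Figure D2:**
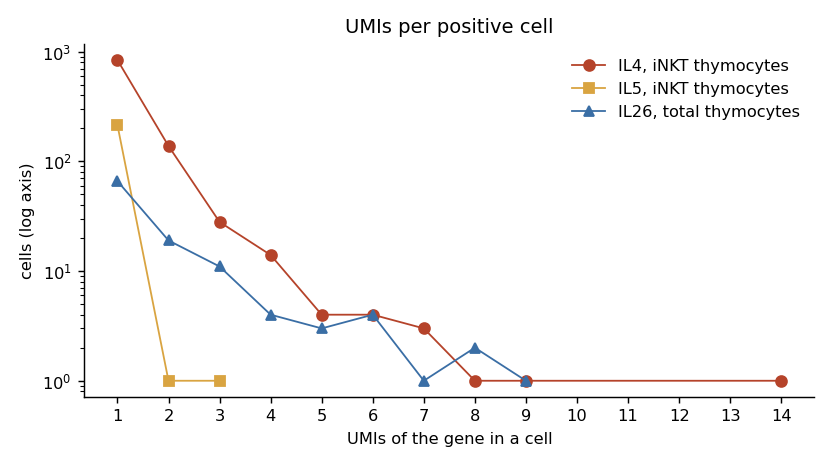
Number of cells (log axis) by the UMIs of IL4 and IL5 in an iNKT thymocyte and of IL26 in a total thymocyte. IL4 and IL26 reach 14 and 9 UMIs in a cell, while IL5 has 214 cells at 1 UMI and 2 cells above.

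Cells were then grouped by clustering each library without the cytokines, their receptors and the regulators of the gene lists, so that clusters were not built on these genes. Clusters are called by number and leading genes. IL4 UMIs were counted in every iNKT cluster of at least 100 cells, at different levels. The part of free RNA in these counts was not tested. Cluster 14, 14 cells with B and plasma cell markers at 143 times the library's level and a median of 2619 UMIs, held no IL4, which allows a share of up to 23.2%. Cluster 11 had 122 cells, with cytotoxic markers at 10.8 times, myeloid or dendritic markers at 10.03 times and iNKT markers at 0.387 times the library's level. IL4 stood there at 24.5 CPM (12.2 to 43.9), near that of the whole library. Cluster 5, with 892 cells led by RASGEF1A, FCER2 (the low-affinity IgE receptor CD23), DMWD, CCL4 and S1PR2, had the highest level of 70.6 CPM (63.1 to 78.8), and 185 of its cells, 20.7% (18.1 to 23.6), held a UMI. It made up 7.91% of the cells and held 17.9% of the IL4-positive cells. Cluster 8, led by RAB7B, CBARP, CDKN1A, STAC2 and FCER2, followed at 38.0 CPM (31.5 to 45.5). Cluster 7, led by MISP, IRF4, STX11, EGR2 and BBC3, stood at 34.7 CPM (28.7 to 41.6), which was not apart from cluster 8. The intervals of cluster 5 did not overlap those of any other cluster of at least 100 cells.

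The lower end of the order was less sharply drawn. Cluster 9, led by CA2, SOD3, ALDH2, BEX3 and BEX4, had the lowest level of these clusters, 9.19 CPM (5.82 to 13.8), with a UMI in 23 of 596 cells. It overlapped cluster 10, which was led by the replication genes E2F1, CDCA7, DTL, CDT1 and ZNF367 and stood at 14.2 CPM (9.63 to 20.1), and cluster 1 at 14.6 CPM (11.8 to 17.9). The interferon-response cluster 6, led by CXCL10, RSAD2, HERC5, ISG15 and IFIT5, had 18.8 CPM (14.7 to 23.7). Cluster 2 showed why the level and not the share sets the order. Its cells were deep, with a median of 7044 UMIs, and 14.2% of them held IL4, but its level was 25.2 CPM, beside 25.3 CPM over the library. At 2000 UMIs per cell the shares were 9.77% (7.89 to 11.9) in cluster 5, 6.45% (4.62 to 8.71) in cluster 8, 4.93% (3.55 to 6.66) in cluster 7, 4.01% (2.93 to 5.35) in cluster 2 and 2.10% (1.09 to 3.64) in cluster 9, and the intervals of clusters 8, 7 and 2 overlapped each other. That of cluster 5 lay above those of clusters 7, 2 and 9 and overlapped those of clusters 8 and 11, and that of cluster 9 overlapped those of clusters 7 and 2.

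MAF, a transcription factor that activates IL4 in mouse helper T cells, ran in a similar order over these clusters. Its level was 86.5 CPM (78.1 to 95.4) in cluster 5 and 58.6 CPM (50.7 to 67.4) in cluster 7. In cluster 9 it was 9.19 CPM (5.82 to 13.8) and in cluster 1 it was 9.57 CPM (7.32 to 12.3). Cluster 8 broke the order, being second in IL4 with MAF at 32.2 CPM (26.3 to 39.2), close to the 34.1 CPM of the library. The 12 points share 1 library.

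**Figure D3:**
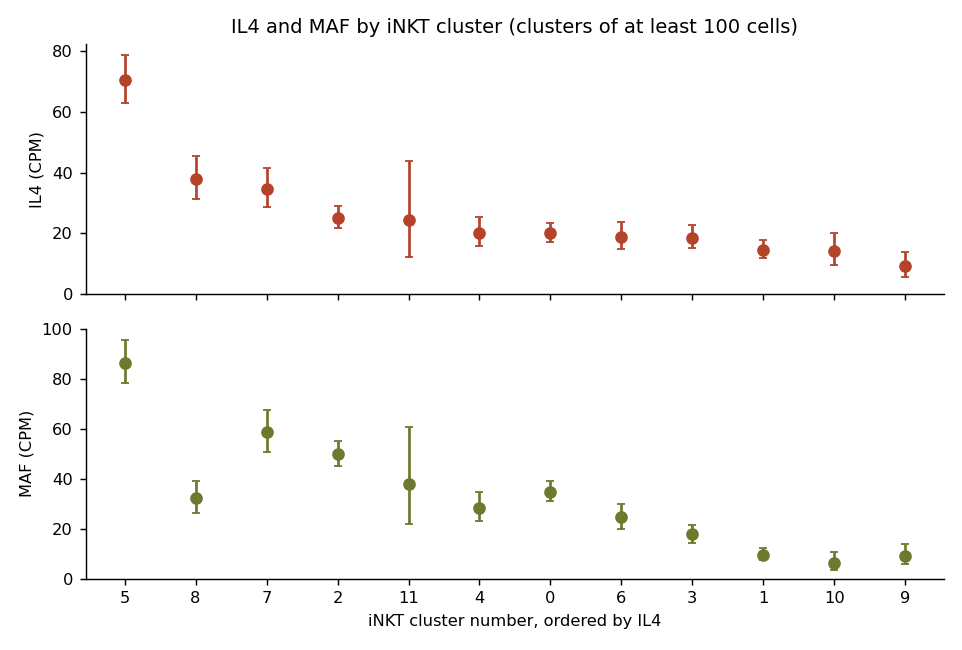
Level of IL4 (upper panel) and MAF (lower panel) in CPM in the iNKT clusters of at least 100 cells, ordered by IL4, with exact Poisson 95% intervals. Cluster 5 is highest in both, at 70.6 CPM of IL4 and 86.5 CPM of MAF, and cluster 9 is lowest in IL4 at 9.19 CPM.

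IL5 did not follow IL4. Over the iNKT clusters of at least 100 cells its share ran between 0.395% of the 1012 cells of cluster 4 (0.108 to 1.01) and 2.69% of the 892 cells of cluster 5 (1.73 to 3.98). In level, cluster 0 was highest at 6.38 CPM (4.80 to 8.30), cluster 5 had 5.28 CPM (3.38 to 7.86) and cluster 4 was lowest at 1.14 CPM (0.310 to 2.92). The interval of cluster 4 lay below those of clusters 0 and 5, and the intervals of all other pairs of these clusters overlapped. In total thymocytes, IL5 UMIs were likewise scattered: 12 of the 13 clusters of at least 100 cells stood between 1.07 and 4.31 CPM with overlapping intervals, and cluster 1 had 0 UMIs in 932 cells. In the RefSeq table of Sscrofa11.1 the IL5 gene overlaps RAD50 and SLC22A5, and how such reads were counted is not given in the sources used here. RAD50 itself, a DNA repair gene, had 84.7 CPM in iNKT cells and 92.4 CPM in total thymocytes, and IL5 was found in 1.71% (1.31 to 2.20) of RAD50-positive and 2.01% (1.71 to 2.34) of RAD50-negative iNKT cells. At 2000 UMIs per cell the direction turned, with 0.998% (0.582 to 1.59) of RAD50-positive and 0.810% (0.638 to 1.01) of RAD50-negative cells. The intervals overlapped at both depths. IL4 and IL13 both lie within the span of KIF3A in that table, and KIF3A had 39.7 CPM in iNKT cells and 21.1 CPM in total thymocytes.

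Few iNKT cells held 2 of the cytokines. None of the 10 was found in 10029 cells, 1 in 1212 cells and 2 in 32 cells, and no cell held 3. In total thymocytes 191 cells held 1 cytokine and none held 2. The 32 cells were made up of 26 with IL4 and IL5, 3 with IL4 and IL21, and 3 with IL4 and IL26. Among IL5-positive cells 12.04% (8.02 to 17.1) had IL4, against 9.10% (8.57 to 9.65) of IL5-negative cells. At 2000 UMIs per cell the shares were 7.61% (3.11 to 15.1) of IL5-positive and 4.21% (3.84 to 4.61) of IL5-negative cells, again with overlapping intervals. A difference was not detectable at this depth.

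The rare cytokines sat in few and partly related cells. Of the 9 IL21-positive iNKT cells, 7 were in cluster 5, the cluster highest in IL4 and MAF. That was 0.785% of its cells (0.316 to 1.61), and the remaining cells with IL21 were 1 of 1103 in cluster 2 and 1 of 272 in cluster 10. IL4 was found in 3 of the 9 cells, with 6, 9 and 1 UMIs, and MAF in 4 of them. The 2 IL10-positive iNKT cells held TNF, 6 and 2 UMIs, but no IL4 and no MAF. The 4 CSF2-positive cells and the single IL2-positive cell held no IL4. The 12 IL26-positive iNKT cells had 1 UMI each and came from 8 clusters.

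The genes with the pattern closest to IL4 were taken as those with the highest ratio of CPM in IL4-positive over IL4-negative iNKT cells, over all 11273 cells. The IL4-positive cells were deeper, with a median of 4897.5 UMIs, against 4154 UMIs in IL4-negative cells. At least 100 UMIs were counted for 8703 genes. Of these 11 were at least 2-fold higher in IL4-positive cells, which is 0.126%, and 39 were at least 2-fold lower, 0.448%. The 10 highest were CCL4, RASGEF1A, CBARP, NFIL3, S1PR2, FCER2, CDKN1A, CD69, IRF4 and GCSAML, with ratios between 3.73 and 2.06. Of these, RASGEF1A, FCER2, CCL4 and S1PR2 also lead cluster 5, CBARP and CDKN1A lead cluster 8, and IRF4 leads cluster 7.

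Among the highest were genes of T cell activation. CD69, an early activation antigen, stood at 187 CPM in IL4-positive and 85.4 CPM in IL4-negative cells, a ratio of 2.19 (2.05 to 2.34) from 369 positive cells. IRF4, a transcription factor induced by receptor signals, had 19.98 CPM in IL4-positive and 9.49 CPM in IL4-negative cells, a ratio of 2.11 (1.70 to 2.59), which became 3.37 (2.27 to 4.88) at 2000 UMIs per cell. NFIL3, a basic leucine zipper factor, had 7.34 CPM in IL4-positive and 2.36 CPM in IL4-negative cells, a ratio of 3.11 (2.13 to 4.46). FCER2 had 48.0 CPM in IL4-positive and 17.6 CPM in IL4-negative cells, a ratio of 2.72 (2.37 to 3.12). CCL4, an inflammatory chemokine, reached the highest ratio, 3.73 (3.42 to 4.06), but 147 of its 779 UMIs in IL4-positive cells came from 1 cell. Without that cell the ratio was 3.03. Thinning was run without leaving that cell out. It moved the ratio of 3.73 to 7.11 (6.13 to 8.24), from 33 cells that then held both IL4 and CCL4. The intervals of the CCL4 ratios take UMIs as independent, so with UMIs clumped in few cells they are too narrow.

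The genes lowest in IL4-positive cells were HLA-DRA, MISP, KLRK1, JCHAIN and SLA-DQB1. HLA-DRA and SLA-DQB1 encode class II antigen-presenting molecules, JCHAIN the joining chain of antibodies, and KLRK1 the receptor NKG2D. JCHAIN had 14 UMIs in IL4-positive cells, against 1107 UMIs in IL4-negative cells, a ratio of 0.102 (0.0558 to 0.173). Its level in the 14 cells of cluster 14 was 6455-fold over the other clusters. The interval takes UMIs as independent and does not cover such clumping in few cells. JCHAIN and HLA-DRA lead cluster 14, 14 cells with no IL4 UMI, which allows a share of up to 23.2%. MISP leads cluster 7, and KLRK1 and CCL5 lead cluster 11. These clusters were not low in IL4, at 34.7 CPM in cluster 7 and 24.5 CPM in cluster 11, against 25.3 CPM over the library.

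**Figure D4:**
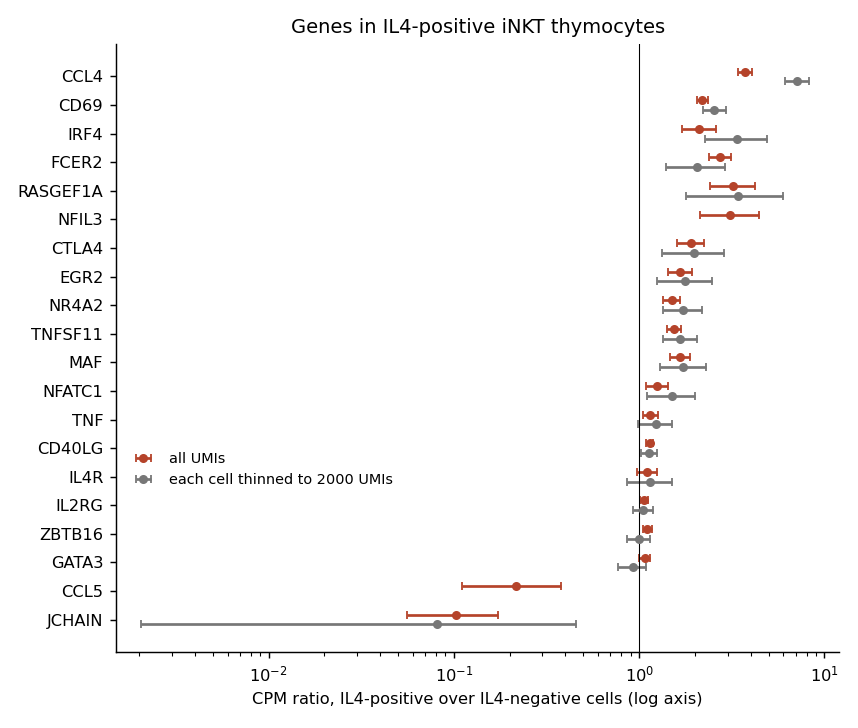
Ratio of CPM in IL4-positive over IL4-negative iNKT thymocytes (log axis) with exact 95% intervals, from all UMIs (red) and with each cell thinned to 2000 UMIs (grey). CCL4, CD69, IRF4 and FCER2 lie above 2 in both, while GATA3 and ZBTB16 lie at ratios of 1.07 and 1.11 from all UMIs and of 0.921 and 0.995 after thinning.

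Regulators of the T helper cytokine genes were set beside this. Of 30 listed factors 28 were in the matrices and 23 had at least 100 UMIs. In IL4-positive cells 1 of the 23, IRF4, was at least 2-fold higher and none was at least 2-fold lower, and the median log2 ratio was 0.10, against -0.01 over all 8703 genes. The interval lay above 1 in 5 of the 23, as in 9.38% of all genes, and below 1 in 5, as in 7.93% of all genes. The 5 below 1 were STAT5B, STAT5A, ZBTB7B, IKZF1 and ETS1, with ratios between 0.836 and 0.876. MAF had 52.9 CPM in IL4-positive and 31.7 CPM in IL4-negative cells, a ratio of 1.67 (1.47 to 1.89), and NFATC1, a calcium-activated factor, had a ratio of 1.25 (1.09 to 1.43). GATA3, the factor that opens the IL4 locus in helper T cells, had 178 CPM in IL4-positive and 167 CPM in IL4-negative cells, a ratio of 1.07 (1.001 to 1.14) that turned to 0.921 (0.773 to 1.09) after thinning. ZBTB16 had 246 CPM in IL4-positive and 222 CPM in IL4-negative cells, a ratio of 1.11 (1.05 to 1.17) that turned to 0.995 (0.858 to 1.15) after thinning.

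TBX21, a regulator known to drive IFNG, was lower in iNKT cells. It had 27 UMIs in iNKT cells, 0.507 CPM (0.334 to 0.737), against 145 UMIs in total thymocytes, 5.08 CPM (4.28 to 5.97). IFNG had 0 UMIs in iNKT cells and only 1 in total thymocytes, and a link between TBX21 and IFNG was not tested. GATA3 had 168 CPM in iNKT cells and 291 CPM in total thymocytes. MAF had 34.1 CPM in iNKT cells (32.5 to 35.7) and 5.18 CPM in total thymocytes (4.38 to 6.09). IL4 was found in 5 of the 25 TBX21-positive iNKT cells.

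Most genes that respond to receptor signals were somewhat higher in IL4-positive cells. Of 25 listed 23 were in the matrices, and 20 had at least 100 UMIs. Only CD69 passed 2-fold in IL4-positive cells and none was 2-fold lower. The interval lay above 1 in 14 of the 20, against 9.38% of all genes, and below 1 in none, with a median log2 ratio of 0.18. Such counts were not matched for abundance, and intervals narrow with more UMIs: TNFRSF4 had 58946 UMIs in IL4-negative cells. That limit applies to every count of intervals set against all genes. At 2000 UMIs per cell the interval included 1 for PDCD1, CD5, FOSB, TNFAIP3, MYC, NFKBIA, DUSP2, ATF3 and NR4A1. It stayed above 1 for CD69, CTLA4, EGR2, NR4A2, FOS, EGR1, DUSP1, REL, ICOS, TNFRSF4 and TNFRSF18. CTLA4, an inhibitory receptor, stood at 30.6 CPM in IL4-positive and 16.1 CPM in IL4-negative cells. EGR2 had 36.9 CPM in IL4-positive and 22.1 CPM in IL4-negative cells, and NR4A2 had 69.3 CPM in IL4-positive and 46.3 CPM in IL4-negative cells. Both encode transcription factors induced by the T cell receptor. FOS, at 608 CPM in IL4-positive and 543 CPM in IL4-negative cells, had a ratio of 1.12 (1.08 to 1.16). EGR1, at 314 CPM in IL4-positive and 318 CPM in IL4-negative cells, had a ratio of 0.988 (0.941 to 1.04), which turned to 1.19 (1.06 to 1.32) at 2000 UMIs per cell. Of the 12 measured genes of cytokine-signal feedback none passed 2-fold in either direction, and their median log2 ratio was 0.05.

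Several of these genes were ordered by the number of IL4 UMIs in a cell. In cells with 3 or more, 2, 1 and 0 IL4 UMIs, 56, 138, 838 and 10241 cells, the share that lay in cluster 5 was 51.8% (38.0 to 65.3), 26.1% (19.0 to 34.2), 14.3% (12.02 to 16.9) and 6.90% (6.42 to 7.41). In the same order CD69 stood at 619, 234, 144 and 85.4 CPM. MAF stood at 102, 84.0, 43.4 and 31.7 CPM, with overlapping intervals for the first and second of these. CTLA4 stood at 63.6, 45.0, 25.4 and 16.1 CPM, again overlapping in the first and second. IRF4 did not keep the order, at 19.4, 35.5, 17.2 and 9.49 CPM, with 7 UMIs in the first class, and neither did TNF, at 99.5, 114, 86.9 and 79.7 CPM. GATA3 stood at 191, 205, 172 and 167 CPM, and IL4R at 41.5, 46.2, 53.3 and 46.9 CPM, with no such order. The classes were chosen after the values were seen and their median depths were 5438, 5291.5, 4793 and 4154 UMIs.

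Part of these differences lay between clusters. Inside cluster 5, MAF had 83.1 CPM in 185 IL4-positive and 87.5 CPM in 707 IL4-negative cells, a ratio of 0.9496 (0.740 to 1.21), and EGR2 had a ratio of 0.816 (0.611 to 1.08), so neither could be told from 1 there. The same held for IRF4 at 1.05 (0.690 to 1.57), CTLA4 at 1.20 (0.932 to 1.53) and TNFSF11 at 1.04 (0.896 to 1.21), and CCL4 had a ratio of 1.22 (1.07 to 1.39) there. Outside cluster 5 the ratio was 1.69 (1.46 to 1.96) for MAF, 1.76 (1.47 to 2.09) for EGR2, 2.22 (1.73 to 2.82) for IRF4, 1.57 (1.23 to 1.97) for CTLA4, 1.37 (1.21 to 1.53) for TNFSF11 and 5.03 (4.49 to 5.64) for CCL4. The IL4-positive cell with the most CCL4 UMIs was not left out of this split, and the CCL4 intervals are too narrow here as well. CD69 was higher in IL4-positive cells on both sides, by 1.53 (1.38 to 1.69) inside and 1.75 (1.59 to 1.92) outside, as were NR4A2, by 1.66 (1.33 to 2.06) inside and 1.30 (1.15 to 1.48) outside, and NFIL3, by 2.26 (1.28 to 3.90) inside and 2.26 (1.29 to 3.77) outside. EGR2, CTLA4, CD69, NR4A2 and NFIL3 were not among the genes left out of the clustering, so cluster 5 could be drawn partly on them. This split too was chosen after the values were seen.

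Seen from the other side, IL4 was more often found in cells that held IRF4, CD69, EGR2 or CTLA4. At 2000 UMIs per cell, IL4 was found in 12.4% (8.43 to 17.5) of IRF4-positive and 4.07% (3.70 to 4.46) of IRF4-negative iNKT cells. It was found in 7.93% (6.58 to 9.46) of CD69-positive and 3.69% (3.32 to 4.09) of CD69-negative cells. The shares were 7.32% (5.09 to 10.1) of EGR2-positive and 4.11% (3.74 to 4.51) of EGR2-negative cells, and 7.80% (5.25 to 11.1) of CTLA4-positive and 4.12% (3.75 to 4.52) of CTLA4-negative cells. They overlapped for MAF, at 5.66% (4.06 to 7.66) of MAF-positive and 4.15% (3.77 to 4.55) of MAF-negative cells. They overlapped for NFATC1, at 6.03% (4.45 to 7.96) of positive and 4.11% (3.73 to 4.51) of negative cells, for TNF, at 4.99% (3.90 to 6.27) of positive and 4.13% (3.74 to 4.55) of negative cells, and for CD40LG, at 4.53% (4.01 to 5.10) of positive and 3.93% (3.42 to 4.49) of negative cells. They overlapped for GATA3 too, at 3.77% (3.099 to 4.53) of GATA3-positive and 4.41% (3.97 to 4.88) of GATA3-negative cells.

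Some other cytokines of T cells were held at high levels by iNKT cells. Of 33 listed, 30 were in the matrices, 26 had a UMI in iNKT cells and 13 had at least 100, while IL22, IL25, IL6 and IL27 had none. TNF stood at 81.0 CPM (78.6 to 83.5) in iNKT cells and 21.8 CPM (20.1 to 23.6) in total thymocytes. CD40LG, which activates B and dendritic cells, stood at 389 CPM in iNKT cells and 25.5 CPM in total thymocytes, and TNFSF11, the ligand that matures thymic epithelium, at 65.8 CPM in iNKT cells and 9.03 CPM in total thymocytes. IL9, a further type 2 cytokine, had 8 UMIs in iNKT cells and 0 in total thymocytes. Of the 13 with at least 100 UMIs, CCL4 was at least 2-fold higher and CCL5 at least 2-fold lower in IL4-positive cells. TNFSF11 was higher there by 1.54 (1.41 to 1.69), CD40LG by 1.14 (1.10 to 1.19) and TNF by 1.15 (1.05 to 1.26).

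Receptor chains for most of these cytokines were found in iNKT cells, including chains for cytokines with no UMI there. Of 17 listed, 15 were in the matrices. CSF2RA and IL17RC were not, so the receptors of CSF2 and IL17A could be seen only in part. IL2RG, the shared γ chain, stood at 275 CPM in iNKT cells and 203 CPM in total thymocytes. IL2RB, a signalling chain for IL-2 and IL-15, stood at 72.3 CPM in iNKT cells and 16.8 CPM in total thymocytes. IL4R stood at 47.4 CPM in iNKT cells and 16.2 CPM in total thymocytes. IFNGR1 stood at 27.9 CPM in iNKT cells and 15.96 CPM in total thymocytes, and IL17RA at 37.6 CPM in iNKT cells and 13.4 CPM in total thymocytes. IL21R stood at 68.7 CPM in iNKT cells and 50.7 CPM in total thymocytes. IL2RA, the high-affinity chain, was low at 4.79 CPM in iNKT cells and 4.59 CPM in total thymocytes, as was IL10RA at 6.21 CPM in iNKT cells and 3.12 CPM in total thymocytes. IL5RA had 2 UMIs in iNKT cells and IL13RA2 and IL20RA had none. Of the 11 receptor genes with at least 100 UMIs none differed 2-fold between IL4-positive and IL4-negative cells, and IL4R had a ratio of 1.10 (0.97 to 1.24).

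The 216 IL5-positive iNKT cells had a median of 4880 UMIs, against 4199 UMIs in IL5-negative cells. Of 8703 genes 67 were at least 2-fold higher in them, 0.77%, and 332 at least 2-fold lower, 3.81%. The 4 highest were HLA-DRA, SOD3, TULP2 and SLA-DQB1, but 47 of the 49 HLA-DRA UMIs, 18 of the 34 SOD3 UMIs, 23 of the 29 TULP2 UMIs and 30 of the 31 SLA-DQB1 UMIs each came from 1 cell. No receptor-signal gene, regulator or receptor on the lists was at least 2-fold higher. The interval lay above 1 in 6 of 20 receptor-signal genes and below 1 in 1. Among 23 regulators it lay above 1 in 1 and below 1 in 1, and among 11 receptors in none. The share of all genes with such intervals is not given here. The lowest were LAMB3, SLC25A11, SLC16A13, ENPP2 and PIMREG, each with no UMI in these cells and 104 to 340 UMIs in IL5-negative cells, and for SLC25A11, ENPP2 and PIMREG the interval of the ratio included 1. Markers of cycling cells summed to 140 CPM in IL5-positive and 66.2 CPM in IL5-negative cells, with 2 of 4 at least 2-fold higher, and their part in these values was not tested.

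IL26 was the cytokine of the other library. In total thymocytes 111 of 8026 cells, 1.38% (1.14 to 1.66), held 224 UMIs, a level of 7.84 CPM (6.85 to 8.94), and it was 34.8-fold lower in iNKT cells (19.5 to 68.4). IL-26 is a member of the IL-10 family that human helper T cells of the IL-17 type secrete, and its gene lies between IFNG and IL22 in the RefSeq table; mice lack it. The highest level was in cluster 4 of total thymocytes, 513 cells led, IL26 itself aside, by DTHD1, CA2, STXBP6, EGR2 and PREPL, at 97.1 CPM (78.1 to 119). There 41 cells, 7.99% (5.80 to 10.7), held it, and 11.6% (6.93 to 18.0) of the 146 cells deep enough to be thinned to 2000 UMIs. Cluster 7, led by RHEX, IL9R, OR51E1, SOX13 and MAF, followed at 15.1 CPM (9.59 to 22.7), and cluster 3, led by STAMBPL1, TOX2, EGR2, CCR4 and IGFBP4, at 10.3 CPM (6.20 to 16.1). No UMI was found in the 865 cells of cluster 2, led by MYL4, KLK7, GZMH, KRT85 and NUAK2.

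**Figure D5:**
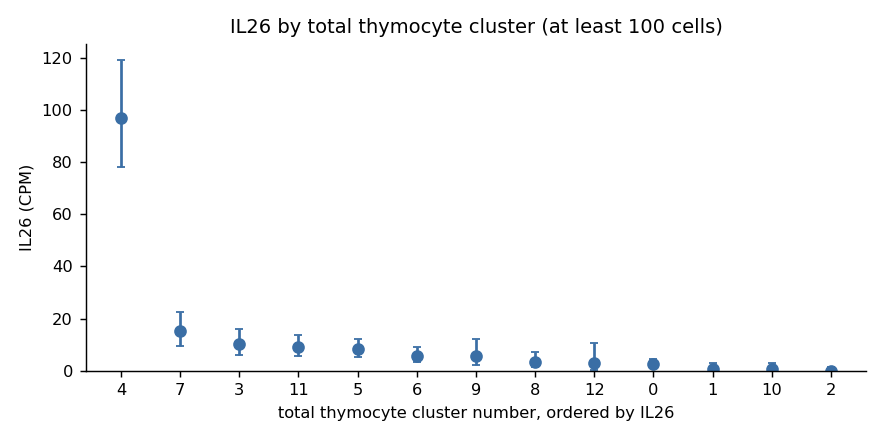
IL26 level in CPM in the total thymocyte clusters of at least 100 cells, ordered by level, with exact Poisson 95% intervals. Cluster 4 stands at 97.1 CPM, cluster 7 at 15.1 CPM, and cluster 2 at 0.

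IL26-positive total thymocytes were compared with the IL26-negative ones after their values were seen. Of 8384 genes 174 were at least 2-fold higher, 2.08%, and 763 at least 2-fold lower, 9.1%. CA2, carbonic anhydrase, had 50.3 CPM in IL26-positive and 8.19 CPM in IL26-negative cells, a ratio of 6.15 (4.06 to 9.02), from 19 cells. Of 5 listed markers of gamma-delta T cells, the 4 with at least 100 UMIs were all at least 2-fold higher, namely SOX13 with a ratio of 3.48 (2.65 to 4.50), RHEX with 3.21 (2.78 to 3.68), BLK with 2.35 (1.94 to 2.83) and GATA3 with 2.06 (1.85 to 2.29). The gamma-delta list summed to 1264 CPM in IL26-positive and 516 CPM in IL26-negative cells, and its other gene, TRDC, had fewer than 100 UMIs. Of the 111 IL26-positive cells, 14 were in cluster 7, led by RHEX and SOX13 among others, and 41 in cluster 4. Of 21 receptor-signal genes with at least 100 UMIs, 6 were at least 2-fold higher, against 2.08% of all genes. They were NR4A3, TNFRSF9, EGR2, PDCD1, FOS and NR4A1. Another 3 were at least 2-fold lower, against 9.1% of all genes. Cycling markers summed to 1807 CPM in IL26-positive and 1070 CPM in IL26-negative cells, and the median depth was 3248 UMIs in IL26-positive and 2403 UMIs in IL26-negative cells. The part of cycling and depth in these values was not tested. All 8 double-positive markers had intervals below 1, against 7.36% of all genes, and the 4 gamma-delta markers had intervals above 1, against 9.46% of all genes. RAG1, a recombinase gene of double-positive cells, stood at 77.2 CPM in IL26-positive and 294 CPM in IL26-negative cells and CD4 at 38.6 CPM in IL26-positive and 146 CPM in IL26-negative cells. CCL5 had no UMI in IL26-positive cells, against 1795 UMIs in IL26-negative cells.

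The remaining UMIs of total thymocytes were few. Of the 6 IL2-positive cells, 5 were in cluster 7, the cluster led by RHEX and SOX13. The IL13 UMI was in a cell of cluster 16, led by CXCL10, CCL17, ZNF70, CFD and MEF2C, the IFNG, IL4 and CSF2 UMIs were each in a cell of cluster 2, and the IL21 UMI was in cluster 15. The 5 IL10 UMIs lay in clusters 0, 6, 7 and 10.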

How the data were processed

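The authors deposited raw UMI count matrices from 10x 3′ v3.1 libraries, written by Cell Ranger 3.1.0 per the file headers. The submitters' processing notes list Seurat 3.1 beside Cell Ranger 3.1. For genome build and annotation nothing is given in the sources used here. The cytokine genes and the lists were chosen with earlier results of these data known. Barcodes with at least 500 genes and at most 10% mitochondrial UMIs were kept, 93.2% of 12097 iNKT and 88.1% of 9112 total thymocyte barcodes. Scrublet called 1 and 0 doublets and had not worked, so none was removed. Each library was clustered without the cytokine, receptor and regulator lists (scanpy 1.11.5, 2000 variable genes, 30 components, Leiden at resolution 1). Symbols were filled in for 680 genes from a table of names, and 15520 genes with a unique symbol were compared. Ratios have exact conditional binomial intervals; floors are 3 counts. Splitting by a member used genes with at least 100 UMIs. Ratios were ranked per member with at least 50 positive iNKT cells. For IL4 the 10 highest and 5 lowest were named, and for IL5 the 5 lowest but only the first of the 10 highest. Also named were list genes past 2-fold, fixed regulators and receptors, RefSeq neighbours and the 5 leading genes of a cluster. Other listed genes, and the splits by IL26, by IL4 UMIs and by cluster 5, were chosen after their values were seen. TMM factors came from edgeR 4.0.16.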

Additional observations from a re-analysis of the deposited data

How the results depend on the processing

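No paired analysis was possible because each group was 1 library. Cell filters, TMM factors and equal weight per cell left the IL4, IL5 and IL26 ratios between libraries within their intervals; at most 5% mitochondrial UMIs, IL4, IL2, IL10 and CSF2 gave no ratio, since a library then held none of their UMIs. Without a minimum, 2115 genes were at least 2-fold higher in iNKT cells and 3165 lower. Depth limits every share. Thinned to 1000 or 4000 UMIs, the shares were 2.41% and 8.07% for IL4 and 0.498% and 1.68% for IL5 in iNKT cells, and 0.675% and 1.84% for IL26 in total thymocytes. At 2 or more UMIs they were 1.72%, 0.0177% and 0.561%. The highest IL4 share of an iNKT cluster was 17.7% at resolution 0.5, 24.3% at resolution 1.5, 27.0% with 15 components and 9.77% thinned, and the highest IL26 share of a total thymocyte cluster 5.66% at resolution 0.5 and 11.6% thinned. Genes at least 2-fold higher and lower in IL4-positive cells numbered 112 and 444 when positive cells had 2 or more UMIs, 32 and 227 thinned, and 106 and 278 at a minimum of 20 UMIs. By construction, fewer UMIs entered these ratios. After thinning, IL4 was found in ZBTB16-positive cells 0.979 times and in GATA3-positive cells 0.854 times as often as in negative ones, and the ratios in IL4-positive cells turned to 0.921 for GATA3 and 0.995 for ZBTB16. Within cluster 5 those of MAF, EGR2 and ZBTB16 were 0.9496, 0.816 and 0.978. The cause was not tested. Of 163 values of single genes and rarer cytokines under an alternative, 120 stayed within their interval, 36 moved beyond it and 7, those just named, changed direction.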
